A study of Homo sapiens with 6 samples.

Results

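The genes examined were CCL2, CCL7, CCL26, CSF1, ICAM1, VCAM1, IL33 and IL1RL1, 8 of the 61806 genes in the deposited table, which cover the recruitment of monocytes, their adhesion and the IL33 axis. They were chosen by name, with the measured difference between the groups already known, so their values in that comparison are given as a description and carry no test. RNA was sequenced from HFF cells, wild-type human foreskin fibroblasts kept as an established cell-bank culture, after ultraviolet B (UVB) at 40 mJ per cm2, the part of sunlight that damages DNA directly. The UVB + sauchinone group (3 libraries) received 10 µM of the plant lignan sauchinone in its medium, and the UVB group (3 libraries) received vehicle, both for 48 h per the labels' protocols. They describe its addition right after irradiation and also a version that starts before it, without saying which was sequenced. All libraries carry the same batch label, and unirradiated cells were not analysed here, so every value concerns irradiated cells. The labels do not state separate cultures for the replicates, so p-values may measure technical spread alone. Total counts were 21645464 to 23076388 in the UVB + sauchinone libraries and 20984851 to 23075536 in the UVB libraries.

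CCL2 and CCL7 are chemokines that draw monocytes through the receptor CCR2, and CCL26 (eotaxin-3) draws eosinophils through CCR3. CSF1 is the growth factor that keeps macrophages alive through its receptor CSF1R. ICAM1 and VCAM1 are surface proteins that bind the leukocyte integrins made of ITGAL with ITGB2 and of ITGA4 with ITGB1. IL33 is a nuclear cytokine of the IL1 family, set free when barrier or stromal cells are damaged. It signals through IL1RL1 (also called ST2) together with IL1RAP, and a secreted form of IL1RL1 binds IL33 as a decoy. Dermal fibroblasts make several of these factors, and inflammatory cytokines acting through NF-kB are known to induce ICAM1, VCAM1 and CCL2.

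Upstream sequences from RefSeq (GRCh38.p14) were matched for 6 of the 8 genes, all but CCL2 and CSF1, with 8 start sites in all. The 250 bases before the start are printed for the adhesion genes ICAM1 and VCAM1, which share known inducers but stood at very different levels, and for both RefSeq starts of IL1RL1, which lie 25.7 kb apart and which the gene-level counts cannot separate. Capitals mark every match, on either strand, to the motifs searched. These were a strict kappaB consensus of NF-kB (beginning GGG and ending CC) and TATAAA for the TATA box. TTCNNNGAA stood for the GAS-type element and, with 1 more base in its spacer, for the STAT6-type element. TGANTCA was a loose form of the motif of the factor AP-1, whose usual middle base is C or G. TGACGTCA stood for the cyclic AMP response element (CRE) and TGACNNNGC for the core of the antioxidant response element. All printed windows are on the plus strand, and each runs 5′ to 3′ up to the base before the start.
ICAM1 (chr19:10270870-10271119): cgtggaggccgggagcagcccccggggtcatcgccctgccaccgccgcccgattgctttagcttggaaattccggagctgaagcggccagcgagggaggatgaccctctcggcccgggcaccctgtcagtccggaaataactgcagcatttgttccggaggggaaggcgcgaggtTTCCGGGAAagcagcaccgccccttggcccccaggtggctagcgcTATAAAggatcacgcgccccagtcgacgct
VCAM1 (chr1:100719492-100719741): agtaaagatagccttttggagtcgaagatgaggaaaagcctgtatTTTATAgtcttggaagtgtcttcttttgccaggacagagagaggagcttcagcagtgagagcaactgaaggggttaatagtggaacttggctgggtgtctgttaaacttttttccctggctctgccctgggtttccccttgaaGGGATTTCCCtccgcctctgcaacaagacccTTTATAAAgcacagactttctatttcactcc
IL1RL1 upstream start (chr2:102311313-102311562): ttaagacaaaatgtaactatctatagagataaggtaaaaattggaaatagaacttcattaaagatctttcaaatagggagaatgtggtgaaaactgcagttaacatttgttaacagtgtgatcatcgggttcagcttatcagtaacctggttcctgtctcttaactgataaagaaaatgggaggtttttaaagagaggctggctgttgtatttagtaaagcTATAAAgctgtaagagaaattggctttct
IL1RL1 downstream start (chr2:102337007-102337256): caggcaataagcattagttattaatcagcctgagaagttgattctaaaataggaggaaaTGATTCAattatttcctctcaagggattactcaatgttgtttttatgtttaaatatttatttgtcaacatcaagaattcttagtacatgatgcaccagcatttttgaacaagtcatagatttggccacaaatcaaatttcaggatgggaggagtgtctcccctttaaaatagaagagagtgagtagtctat

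The ICAM1 window held a GAS-type element beginning 75 bases before the start and a TATA box beginning 30 bases before it. The VCAM1 window held the only match to the strict kappaB consensus among the 8 windows, beginning 62 bases before the start. Its TATA box begins 29 bases before the start and overlaps a match on the opposite strand. Variant kappaB letters were not searched, so a window without a match may still hold a kappaB site. The upstream start of IL1RL1 had a TATA box beginning 29 bases before it. Its downstream start had a match to the loose AP-1 motif, TGATTCA, beginning 191 bases before it, with T as the middle base. Among 35116 windows of the same length, 9.96% held the strict kappaB consensus, 10.7% the TATA box and 6.57% the loose AP-1 motif. The GAS-type element was in 6.57%, the STAT6-type element in 5.38%, the CRE in 1.65% and the antioxidant core in 10.9%. The STAT6-type element, the CRE and the antioxidant core matched none of the 8 windows. These are letter matches only, and none was measured as a bound site.

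The members did not move in 1 direction. CCL2, CSF1, ICAM1 and IL33, the 4 most abundant of them, were lower with sauchinone, and the scarce transcripts CCL26 and IL1RL1 were higher. In edgeR's quasi-likelihood test over all 15704 genes with enough counts, at a Benjamini-Hochberg adjusted p under 0.05, 49.6% of genes were called, 24.9% lower and 24.7% higher, and the same rule called 4 of the members lower and 2 higher. CCL7 was not called, and VCAM1 had too few counts to be tested. The groups did not overlap in 6 of the 7 tested members, against 57.1% of all tested genes. Because the members were picked from this comparison, nothing is read from those counts. CCL7 and IL1RL1 reached the filter on low counts (0.444 CPM in 3 libraries) only through the UVB + sauchinone libraries, where they were higher. The plot of levels by library shows all 8 genes.

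**Figure D1:**
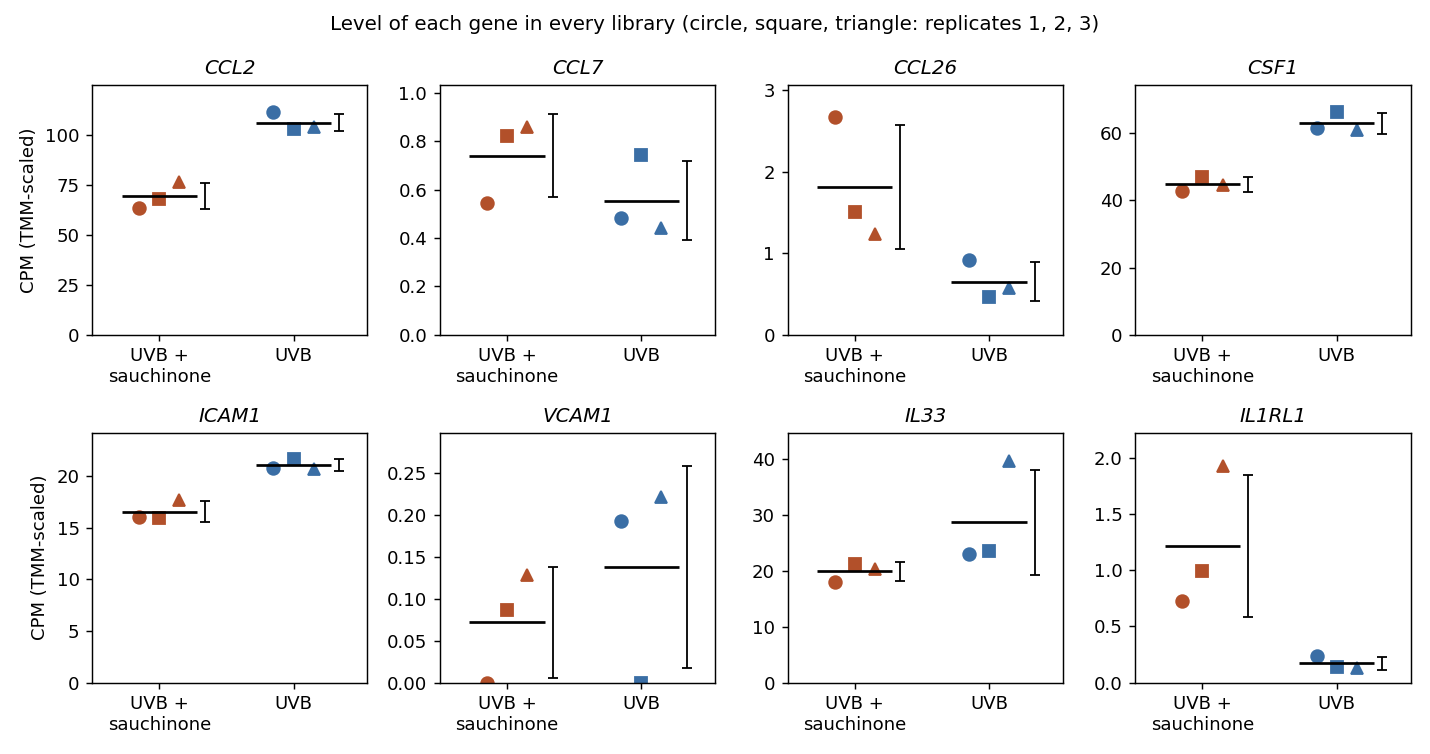
Level of each of the 8 genes in CPM (counts scaled by TMM) in the 3 UVB + sauchinone libraries (left) and the 3 UVB libraries (right); lines are group means and bars 1 SD. CCL2, CSF1 and ICAM1 sit lower with sauchinone with tight replicates, IL33 has 1 UVB library at 39.6 CPM far above the others, and VCAM1 reaches at most 0.221 CPM.

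CCL2 (ENSG00000108691, chromosome 17 at 34255274 to 34257208, plus strand, GRCh38) was the most abundant member. It had 63.5, 67.9 and 76.3 CPM (counts scaled to library size by edgeR's TMM method) in the UVB + sauchinone libraries, against 111, 103 and 104 CPM in the UVB libraries. Every UVB + sauchinone library lay below every UVB library. The means were 69.2 ± 6.50 CPM with sauchinone and 106 ± 4.41 CPM in UVB (SD, n = 3 each), a log2 fold change of −0.62 ± 0.085 (SE). With the dependence on genomic span removed by an offset it was −0.83, and with that on exonic size removed it was −0.77. CCL2 held 93.2% to 96.0% of all counts on 20 CC chemokine genes in the UVB + sauchinone libraries and 95.8% to 97.2% in the UVB libraries, with exact binomial 95% intervals that together span 91.8% to 97.8% and cover counting error only. The total of CC chemokine counts was 1508, 1657 and 1855 with sauchinone and 2412, 2320 and 2418 in UVB.

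CCL7 (ENSG00000108688, chromosome 17 at 34270221 to 34272242, plus strand) lies 13 kb from CCL2 and is its close relative. It had 12, 19 and 20 counts in the UVB + sauchinone libraries and 10, 16 and 10 in the UVB libraries, so the groups overlapped. Its mean was 0.740 ± 0.172 CPM with sauchinone and 0.555 ± 0.163 CPM in UVB (SD, n = 3 each). The ratio of summed counts was 1.34 with a 95% counting interval of 0.859 to 2.12, which covers counting error only and includes a level equal to that of UVB. The fitted log2 fold change was 0.42 ± 0.43 (SE), and it was 0.21 with the dependence on span removed, 0.27 without UVB replicate 3 and 0.68 without UVB replicate 2. Other CC chemokine genes on chromosome 17 were also scarce. CCL13, another CCR2 ligand, named after its values were seen, had 0, 1 and 1 counts with sauchinone and 24, 9 and 12 in UVB. It missed the filter, and its summed counts were higher in UVB by a ratio of 23.7 (95% counting interval 6.20 to 202). CCL5 had 3, 2 and 5 counts with sauchinone and 12, 10 and 2 in UVB, so its groups overlapped. CCL3 ran the other way, with 2, 5 and 4 counts with sauchinone and none in UVB. CCL11 (eotaxin-1) had 3, 5 and 5 counts with sauchinone and 7, 12 and 3 in UVB, and CCL8 had 1, 5 and 0 with sauchinone and 0, 0 and 4 in UVB.

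CCL26 (ENSG00000006606, chromosome 7 at 75769533 to 75789896, minus strand) was higher with sauchinone from a low base. It had 59, 35 and 29 counts in the UVB + sauchinone libraries, against 19, 10 and 13 in the UVB libraries, or 2.67, 1.51 and 1.24 CPM against 0.915, 0.463 and 0.574 CPM. Replicate 1 of the UVB + sauchinone group stood above its partners, but the groups did not overlap. The log2 fold change was 1.47 ± 0.38 (SE), and it was 1.08 without that library. The ratio of summed counts was 2.78 (95% counting interval 1.94 to 4.04, which covers counting error only and is no test). Its neighbour CCL24, the remaining eotaxin gene, lies 20.9 kb away and had no count in any library.

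CSF1 (ENSG00000184371, chromosome 1 at 109910242 to 109930992, plus strand) had 42.7, 47.1 and 44.7 CPM in the UVB + sauchinone libraries, against 61.4, 66.4 and 60.9 CPM in the UVB libraries. The gap between the groups was wider than the spread within either. The means were 44.8 ± 2.17 CPM with sauchinone and 62.9 ± 3.04 CPM in UVB (SD, n = 3 each), a log2 fold change of −0.49 ± 0.086 (SE). Leaving out any 1 library kept it between −0.53 and −0.45. Its receptor gene CSF1R had 8, 27 and 19 counts with sauchinone and 13, 4 and 4 in UVB, and did not pass (log2 fold change 1.26 ± 0.55, edgeR adjusted p = 0.061).

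ICAM1 (ENSG00000090339, chromosome 19 at 10271093 to 10286615, plus strand) had 16.0, 15.9 and 17.7 CPM in the UVB + sauchinone libraries, against 20.8, 21.7 and 20.7 CPM in the UVB libraries. The groups did not overlap, though the difference was the smallest among the 6 members for which this held. The means were 16.6 ± 1.02 CPM with sauchinone and 21.1 ± 0.565 CPM in UVB (SD, n = 3 each), and the log2 fold change was −0.35 ± 0.11 (SE). Gene models on the opposite strand overlap ICAM1: ENSG00000266978 had no count in any library, and ICAM4-AS1 had 0, 6 and 0 counts with sauchinone and 1, 0 and 0 in UVB. Of its neighbours in the ICAM cluster, ICAM4 had no count, and ICAM5 had 15, 8 and 15 counts with sauchinone and 10, 12 and 9 in UVB.

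VCAM1 (ENSG00000162692, chromosome 1 at 100719742 to 100739045, plus strand) was close to absent. It had 0, 2 and 3 counts in the UVB + sauchinone libraries and 4, 0 and 5 in the UVB libraries. These counts lie at or near the limit of 3 counts that a count of 0 allows, or 0.130 to 0.143 CPM depending on the library, so no fold change is given and a difference was not detectable at this depth. The pair of adhesion receptors therefore differed by level in these cells: ICAM1 had at least 354 counts in each library and VCAM1 at most 5.

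IL33 (ENSG00000137033, chromosome 9 at 6215786 to 6257983, plus strand) had 18.0, 21.3 and 20.4 CPM in the UVB + sauchinone libraries, against 23.1, 23.5 and 39.6 CPM in the UVB libraries. UVB replicate 3 was 1.70 times the mean of the other UVB libraries, and the remaining 5 libraries lay between 18.0 and 23.5 CPM. The means were 19.9 ± 1.66 CPM with sauchinone and 28.7 ± 9.42 CPM in UVB (SD, n = 3 each), and the log2 fold change was −0.53 ± 0.15 (SE). Without UVB replicate 3 it was −0.23 and IL33 no longer passed, and in DESeq2 with all libraries it was −0.53 and did not pass either. Among 99 tested genes made up of the members and the related lists below, IL33 was the only gene at least 1.5-fold higher in UVB replicate 3 than in both other UVB libraries. Over all tested genes 2.62% were that much higher there, against 1.80% to 1.99% for the other UVB libraries in the same comparison.

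IL1RL1 (ENSG00000115602, chromosome 2 at 102311502 to 102352037, plus strand) had 16, 23 and 45 counts in the UVB + sauchinone libraries, against 5, 3 and 3 in the UVB libraries. All UVB libraries were at or near the 3-count limit and every UVB + sauchinone library was above them. The ratio of summed counts was 7.24 (95% counting interval 3.85 to 15.1). That interval leaves out the spread between replicates, 16 to 45 counts with sauchinone. It is no test, because IL1RL1 was picked from this comparison and reached the filter only through the UVB + sauchinone libraries. The fitted log2 fold change was 2.81 ± 0.53 (SE) and ran from 2.31, without UVB + sauchinone replicate 3, to 3.11, without UVB replicate 1. The gene model of IL18R1, another IL1-family receptor on the same strand, overlaps IL1RL1 over 40509 bases and had no count in any library. That overlap is of genomic spans, and shared exons were not examined. Assignment of any reads shared by the models could affect the IL1RL1 value and is not given in the sources used here. The counts do not separate the membrane receptor from the secreted decoy. The co-receptor IL1RAP, looked up for its role, had 8.28 ± 0.0344 CPM with sauchinone and 8.20 ± 0.350 CPM in UVB (SD, n = 3 each; log2 fold change 0.013 ± 0.14, edgeR adjusted p = 0.95).

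Levels were compared between genes by the deposited FPKM, the count scaled by exonic length and by the total count of the library. The exonic length of CCL2 in the table, 1935 bases, equals its full genomic span, introns included, so its FPKM is a low estimate per length of spliced RNA. In the UVB + sauchinone group the order was CCL2 (36.3 ± 3.43 FPKM), CSF1 (8.68 ± 0.340), IL33 (6.20 ± 0.465), ICAM1 (4.87 ± 0.321), CCL26 (2.61 ± 1.11), CCL7 (0.867 ± 0.199), IL1RL1 (0.213 ± 0.112) and VCAM1 (0.01 ± 0.01 FPKM; SD, n = 3). No neighbours in that order overlapped. In the UVB group the order was the same, at 53.9 ± 2.57, 11.8 ± 0.518, 8.68 ± 2.83, 6.01 ± 0.139, 0.910 ± 0.339, 0.630 ± 0.184, 0.0267 ± 0.0115 and 0.0233 ± 0.0208 FPKM (SD, n = 3). There CSF1 and IL33 overlapped, as did CCL26 and CCL7, and IL1RL1 and VCAM1. By FPKM, CCL2 stood above 96.2% of the genes with a count in the UVB + sauchinone group and 97.8% in the UVB group. The plot of FPKM by library shows both orders.

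**Figure D2:**
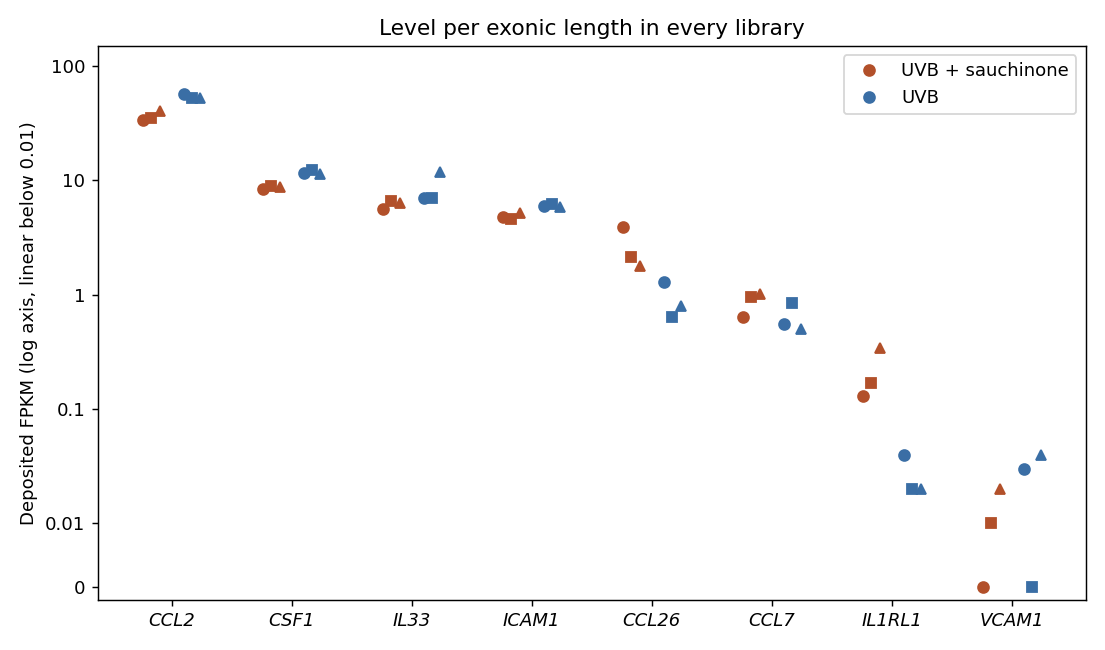
Deposited FPKM of the 8 genes in each library, UVB + sauchinone left of UVB, on a log axis that is linear below 0.01. The levels run from 56.89 FPKM for CCL2 in a UVB library to 0 for VCAM1, and CCL26 stands clear of CCL7 only with sauchinone.

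Related genes in 6 lists, with the members left out, were set beside these values. Of 161 listed genes 92 had enough counts to be tested, 28 rose and 23 fell (30.4% and 25%), with a median log2 fold change of 0.055, against 24.7% and 24.9% and a median of 0.0071 over all genes tested. The plot of related genes shows each list.

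**Figure D3:**
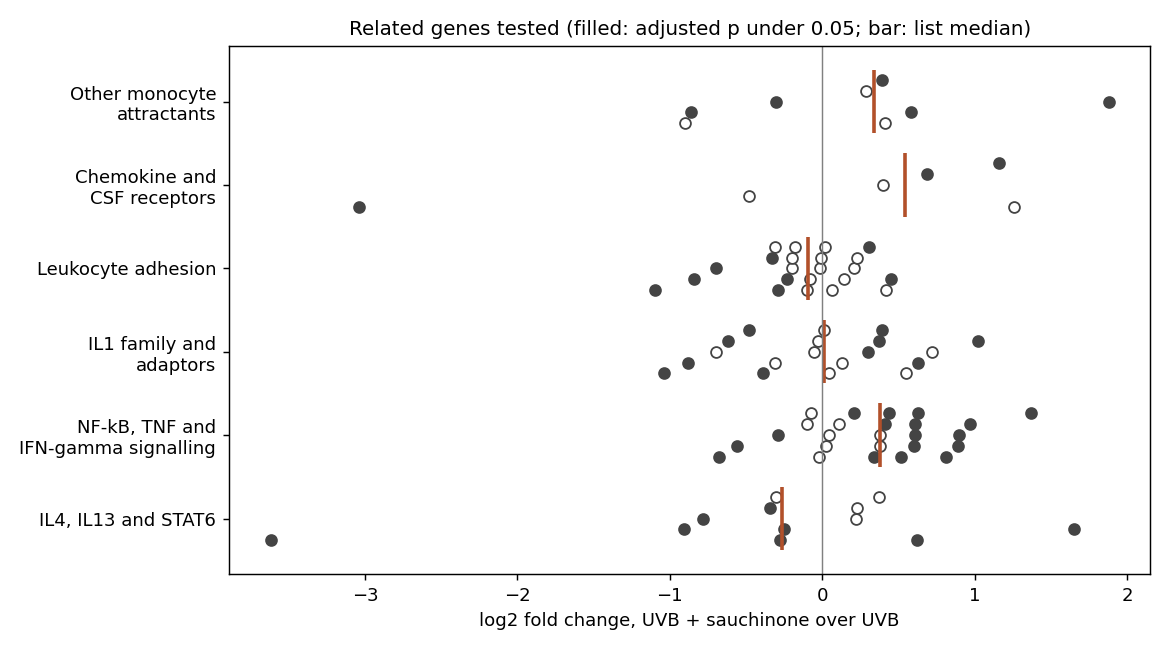
Log2 fold change, UVB + sauchinone over UVB, of each tested gene in the 6 related lists; filled points passed edgeR's test at an adjusted p under 0.05 and orange bars are list medians. The NF-kB list lies mostly to the right, with a median of 0.38, and the leftmost points are POSTN at −3.62 and ACKR4 at −3.04. POSTN had at most 8 counts in any UVB + sauchinone library.

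Among other attractants of monocytes and related factors, 8 of 28 were tested, 3 rose and 2 fell, with a median log2 fold change of 0.34. CXCL12, a chemokine made by stromal cells, fell to 87.2 ± 1.54 CPM with sauchinone, against 158 ± 9.13 CPM in UVB (SD, n = 3 each; log2 fold change −0.86 ± 0.076 SE, edgeR adjusted p = 4.2e-09). ANXA1, a regulator of leukocyte traffic, also fell, by 0.30 on the log2 scale. PGF, a relative of VEGFA that attracts monocytes, rose to 10.1 ± 1.99 CPM, against 2.74 ± 0.534 CPM in UVB (edgeR adjusted p = 2.7e-08), and VEGFA and MIF rose by 0.58 and 0.39 on the log2 scale. The count of falls was 4 without UVB replicate 3 or without UVB + sauchinone replicate 1.

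Receptors for these ligands were nearly silent: 6 of 21 were tested and 6 had no count in any library. CCR2, the receptor of CCL2 and CCL7, had no count with sauchinone and 0, 1 and 1 in UVB, and CCR3, the receptor of CCL26, had 0, 1 and 3 with sauchinone and 2, 5 and 0 in UVB. The exception was ACKR4, a scavenger that removes chemokines such as CCL19 and CCL21 without signalling. It fell to 7.12 ± 0.679 CPM with sauchinone, against 58.7 ± 5.33 CPM in UVB (SD, n = 3 each; log2 fold change −3.04 ± 0.11 SE, edgeR adjusted p = 7.5e-15). CCRL2, a chemerin-binding relative of the chemokine receptors, and CSF2RB, the shared chain of the IL3, IL5 and GM-CSF receptors, rose by 1.16 and 0.69 on the log2 scale (edgeR adjusted p = 0.0016 and 0.022). CSF2RB did not pass without UVB replicate 1 (0.65, edgeR adjusted p = 0.062), without UVB replicate 3 (0.64, 0.054) or without UVB + sauchinone replicate 1 (0.50, 0.14). The list's median log2 fold change was 0.54.

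Of 36 genes of leukocyte adhesion 22 were tested, 2 rose and 6 fell, with a median log2 fold change of −0.090. ALCAM, a ligand of CD6 on T cells, fell to 283 ± 13 CPM, against 606 ± 68.0 CPM in UVB (log2 fold change −1.10 ± 0.078 SE, edgeR adjusted p = 1.1e-10). ITGA4 and ITGB1, which together form the VCAM1 receptor, fell by 0.84 and 0.33, and ADAM10, a protease that sheds cell surface proteins, fell by 0.70. The other two falls, named after their values were seen, were CD47 and JAM3 at −0.29 and −0.23. SELPLG, a selectin ligand, and EZR, which ties ICAM proteins to actin, rose by 0.45 and 0.31. ITGAL and ITGB2, the chains of the ICAM1 receptor on leukocytes, had at most 4 and 10 counts in any library. With the dependence on span removed, ALCAM stood at −0.47 and ADAM10 at −0.23, and with that on exonic size removed ADAM10 stood at −0.38. The count of rises was 1 without UVB replicate 1 or UVB + sauchinone replicate 1, and 5 with the dependence on span removed.

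In the IL1 family and its adaptors 19 of 31 genes were tested, 5 rose and 5 fell, with a median log2 fold change of 0.013. MYD88, the adaptor used by IL1RL1 and its relatives, rose to 73.0 ± 1.02 CPM, against 47.2 ± 2.99 CPM in UVB (SD, n = 3 each; log2 fold change 0.63 ± 0.084 SE, edgeR adjusted p = 1.8e-06). IRAK2, a kinase downstream of MYD88, rose by 1.02, and TAB1, TOLLIP and TRAF6 rose by 0.39, 0.37 and 0.30. CASP1, the protease that matures IL1B and IL18, fell to 14.0 ± 0.422 CPM, against 28.9 ± 1.66 CPM in UVB (log2 fold change −1.04 ± 0.10 SE, edgeR adjusted p = 2.7e-08). IL18, IRAK3, IRAK4 and MAP3K7 fell by 0.88, 0.62, 0.48 and 0.39. With the dependence on span removed, MYD88 stood at 0.40 and 8 genes of this list rose.

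Genes of NF-kB, TNF and interferon gamma signalling included 25 tested genes of 27, of which 14 rose and 3 fell, or 56% and 12%, with a median log2 fold change of 0.38. NFKB2, an NF-kB subunit, rose to 41.1 ± 1.20 CPM, against 23.4 ± 2.03 CPM in UVB (SD, n = 3 each; log2 fold change 0.81 ± 0.10 SE, edgeR adjusted p = 3.1e-07). IFNGR1, a chain of the interferon gamma receptor, rose to 156 ± 14.8 CPM, against 83.8 ± 6.79 CPM in UVB (0.89 ± 0.086, edgeR adjusted p = 1.4e-08). The kinases JAK2 and JAK1 fell by 0.68 and 0.29 on the log2 scale. With the dependence on span removed, 1 gene of the list fell.

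In the list of IL4, IL13 and STAT6 signalling 12 of 21 genes were tested, 2 rose and 6 fell, with a median log2 fold change of −0.27. IL4R, the receptor chain shared by IL4 and IL13, rose to 43.1 ± 0.995 CPM, against 28 ± 0.909 CPM in UVB (log2 fold change 0.62 ± 0.090 SE, edgeR adjusted p = 5.3e-06), and SOCS1, a feedback inhibitor of JAK kinases, rose by 1.65. TGM2, a protein crosslinking enzyme, fell to 275 ± 23.7 CPM, against 473 ± 43.1 CPM in UVB (−0.78 ± 0.079, edgeR adjusted p = 3.4e-08). POSTN, a matrix protein induced by IL13 in several tissues, fell to 0.235 ± 0.109 CPM, against 2.92 ± 0.746 CPM in UVB (−3.62 ± 0.39, edgeR adjusted p = 7.6e-08). It had 8, 4 and 4 counts with sauchinone and reached the filter on low counts only through the UVB libraries, where it was higher. SOCS1 had 5, 7 and 5 counts in UVB and reached the filter only through the UVB + sauchinone libraries, where it was higher. The falls of JAK3, STAT6, IL13RA1 and SERPINB2, all but STAT6 named after their values were seen, were 0.91, 0.34, 0.28 and 0.25 on the log2 scale. CCL26, a known STAT6 target, was higher. Of this list IL4R and SOCS1 were higher too, and 6 genes, STAT6 and POSTN among them, were lower. Any part of STAT6 in the level of CCL26 was not tested. The count of rises was 1 when at least 1 CPM in 3 libraries was required and 4 when libraries were scaled by total counts only.

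For the tested members other than CCL2, the gene with the most similar profile was sought among the other members and the related lists (98 genes), by the root mean square distance of log2 CPM centred on its mean over the 6 libraries. The nearest gene to CSF1 was IRAK4 (0.0801), to ICAM1 it was STAT6 (0.0619) and to IL33 it was JAK2 (0.151), which was also highest in UVB replicate 3, at 27.1 CPM against 19.8 and 20.3 CPM in the other UVB libraries. The distances of the scarce members were larger: 0.196 for CCL7 to TNFRSF1A, 0.364 for CCL26 to NFKBIE and 0.526 for IL1RL1 to PGF. These members had at most 59 counts in any library, so counting error adds to their distances by an amount that was not measured.

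The labelled cell type was checked with 10 fibroblast markers, all of which were detected. Of these 9 fell and THY1 did not pass, and their summed level was 13577 to 13878 CPM in the UVB + sauchinone libraries and 19312 to 21065 CPM in the UVB libraries. Their part in the lower CCL2, CSF1, ICAM1 and IL33 was not tested, and in such bulk RNA fewer cells of a type and less RNA per cell cannot be told apart. Of 10 monocyte and macrophage markers 4 were tested and none was called. AIF1 and TYROBP had no count, and the list summed to 4.84 to 5.88 CPM with sauchinone and 3.71 to 4.45 CPM in UVB. Its scarce, untested members did not all follow that sum. PTPRC, named after its values were seen, had 5, 1 and 2 counts with sauchinone and 8, 18 and 12 in UVB. FCER1G, named likewise, had 11, 15 and 7 with sauchinone and 4, 5 and 6 in UVB. Of 10 endothelial markers 2 were tested, TEK fell, CDH5, KDR and SELE had no count, and the list summed to 4.67 to 7.41 CPM with sauchinone and 9.09 to 10.4 CPM in UVB. Of 8 mast cell markers 3 were tested, KIT and CPA3 fell and GATA2 rose, with CPA3 reaching the filter only through the UVB libraries. TPSAB1 and MS4A2 had no count, and the list summed to 91.6 to 97.5 CPM with sauchinone and 75.6 to 88.2 CPM in UVB. Of 8 keratinocyte markers KRT10 alone was tested and was not called, KRT5, KRT1 and DSG3 had no count, and the list summed to 13.4 to 14.2 CPM with sauchinone and 11.4 to 12 CPM in UVB.

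Leaving out single libraries moved the log2 fold changes of IL33, CCL26, CCL7 and IL1RL1 more than those of CCL2, CSF1 and ICAM1, as the plot of left-out libraries shows. CCL7, CCL26 and IL1RL1 had at most 59 counts in any library.

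**Figure D4:**
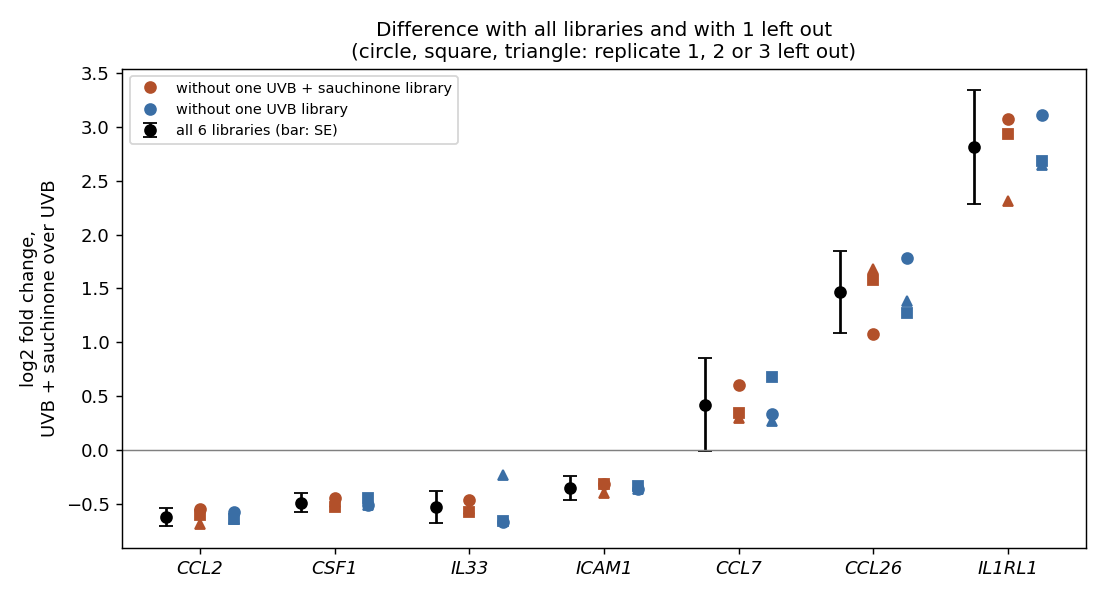
Log2 fold change of the 7 tested members, UVB + sauchinone over UVB, with all 6 libraries (black, bar 1 SE) and with each library left out (orange, a UVB + sauchinone library; blue, a UVB library). CCL2, CSF1 and ICAM1 barely move, and IL33 goes to −0.23 without UVB replicate 3.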

How the data were processed

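RNA-seq of 6 libraries was analysed from the deposited table. The authors deposited raw counts per gene and FPKM, made from paired-end libraries by the dUTP method after poly(A) selection or ribosomal RNA removal, per the labels' protocols. The genome build was GRCh38 (submitters' processing notes). The aligner, counter, annotation and strand setting were not given in the sources used here. The deposited FPKM matched counts divided by exonic size and library total, within 0.006, for 100% of values. Tests ran on the deposited counts with edgeR 4.0.16 under R 4.3.3: filterByExpr, TMM, and the two-sided quasi-likelihood test with Benjamini-Hochberg adjustment over 15704 genes. CPM are counts scaled by TMM; each SE is the log2 fold change over the root of its F. Counting intervals are exact binomial and, like the 3-count limit, cover counting error only. The fits were tested on simulated data.

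Members, lists and tests were chosen with earlier results of these data known. Named genes are the 8 members, the 3 genes with the smallest p in each related list, the nearest profile of each member (for CCL2 not reported here), receptors of the members, and genes in counts of 5 or fewer; others are said to be named after their values were seen. Alternatives were DESeq2 1.42.0, limma-voom (limma 3.58.1), other scalings and filters, the replicate block, each library left out, and per-library offsets removing a lowess trend with genomic span or exonic size.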

Additional observations from a re-analysis of the deposited data

How the results depend on the processing

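Over the 16 alternatives, 105 of 110 values of the members moved by less than the spread between replicates and none changed direction. That spread was each gene's own, so members with variable replicates could shift further without being counted as moved. IL33 at −0.23 without UVB replicate 3 is among the 105, because that library widens its spread. CCL7 and IL1RL1 missed the filter of at least 1 CPM in 3 libraries, so they have no value under it. IL33 did not reach the threshold in DESeq2 or without UVB replicate 3, which is given as a description because the members were picked from this comparison. The 5 that moved came from removing the trend with span (CCL2 −0.83, CSF1 −0.61 and ICAM1 −0.50) or exonic size (CCL2 −0.77 and ICAM1 −0.43), and the cause was not tested. Calls of the named list genes held in 285 of 288 cases, the exceptions being CSF2RB with single libraries left out. These genes were picked for the smallest p in their lists, so that tally does not describe the lists as a whole. With the trend with span removed, ALCAM was −0.47, ADAM10 −0.23 and MYD88 0.40.

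The counts per list that moved by over 1.5 times were small ones. Removing the trend with span gave 2 falls among receptors, 5 rises in adhesion genes, 8 rises in the IL1 family and 1 fall in the NF-kB list. Scaling by total counts gave 4 rises in the STAT6 list, and requiring 1 CPM gave 1. With each library left out, falls among attractants ran from 2 to 4, rises among receptors from 1 to 2 and rises in adhesion genes from 1 to 3. The replicate numbers did not pair the samples (correlations of same-numbered deviations 0.0072, −0.078 and −0.031), and with the replicate block 3603 genes rose and 3677 fell, against 3872 and 3914 without it.

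Depth limits VCAM1, IL1RL1 in UVB, CCR2 and CCR3, whose counts were near the 3-count limit in several libraries, and to a lesser degree CCL7, with 10 to 20 counts.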
